A study of Mus musculus with 12 samples.

Results

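The 33 genes described here encode enzymes and regulators of cholesterol and fatty acid synthesis, the classic targets and partners of the sterol regulatory element-binding proteins (SREBPs). They were taken as a list of gene symbols, and every probe whose transcript identifier mapped to a listed gene was used. The arrays of the first comparison held 55 such probes among 18749 named genes, and those of the second comparison held 46 among 20660. The list holds a sterol arm of 19 genes, which build cholesterol from acetyl-CoA or carry it, a fatty acid arm of 9 genes, which make, lengthen and desaturate fatty acids, and 5 regulators of SREBP activity.

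The cells were J1, a mouse embryonic stem cell line, so all values come from 1 line. All 4 groups were grown on gelatin in serum replacement medium that held 1000 U/mL LIF, the cytokine that keeps these cells in self-renewal, and RNA was taken after 24 h. One comparison set vitamin C (VC, 50 µg, with no volume stated) against water (ddH2O, 1 µL), and the other set retinoic acid (RA, 1 µM), which drives stem cells to differentiate, against its solvent DMSO (1 µL). Each group had 3 samples and each sample 1 one-colour Agilent array, 12 arrays in all. Whether a group's samples were grown as separate cultures is not stated in the labels, and the p-values therefore measure only a spread that may be technical.

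Cholesterol is built in a long chain of steps in the cytosol and endoplasmic reticulum: acetyl-CoA is turned into mevalonate and then isoprenoids, these are joined to squalene, squalene is closed into lanosterol, and lanosterol is trimmed to cholesterol. SREBPs are made as membrane-bound precursors that the escort protein SCAP carries to the Golgi for cleavage when membrane sterol is low, while INSIG proteins hold SCAP back when sterol is high. The freed fragment of SREBP-2 mainly switches on the sterol genes and that of SREBP-1 mainly the fatty acid genes, and INSIG1 is itself a target.

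The 2 comparisons were run on different array designs and were scaled and tested separately. A level below is the log2 processed signal of a gene's brightest probe minus the 75th percentile of all non-control spots on the same array; levels of different genes are not comparable with one another. A gene was called when limma's adjusted p over all genes of its comparison was under 0.05. All 33 genes were tested in both comparisons, each with its brightest probe well above background on all 6 arrays. The share of probes well above background ran from 67.0% to 70.4% across the 6 arrays of the VC comparison and from 60.9% to 65.7% across those of the RA comparison, with no saturated spot. All 6 embryonic stem cell markers examined were above background on arrays of both designs. Each array averages a culture, so fewer cells of a type and less RNA per cell cannot be told apart.

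In VC-treated cells the sterol genes lay mostly below their ddH2O level, by modest amounts. Of the 19 sterol arm genes 9 fell and 0 rose, where 10.5% of all 14531 genes tested fell and 6.59% rose. The 9 make up 47.4% of the arm. Of the 9 fatty acid arm genes 3 fell (33.3%) and 0 rose. Of the 5 regulators 1 fell and 0 rose. Without adjustment, 14 sterol, 5 fatty acid and 1 regulator gene had limma p under 0.05 in the lower direction, and 0 of each in the higher direction, against 18.7% and 15.9% of all genes. The median log2 difference was -0.22 over the sterol arm and -0.15 over the fatty acid arm, against -0.001 over all genes. The list was drawn up with earlier results of these data in view, so these shares describe the list and were not tested.

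Sterol genes that fell were found in each stretch of the pathway. Of 7 genes from acetyl-CoA to farnesyl diphosphate 3 fell, of 3 genes that make and close squalene 1 fell, and of 8 genes from lanosterol to cholesterol 4 fell, with medians of -0.17, -0.16 and -0.30 on the log2 scale. Groups did not overlap, with all VC samples lower, for 14 of the 19 sterol genes and 5 of the 9 fatty acid genes, where 21.9% of all genes showed that pattern. All VC samples were higher for 1 sterol gene, against 20.2% of all genes. A called fall of at least 2-fold was seen for none of the 33 genes and for 0.268% of all genes, and a called rise of that size for none and for 0.0138%. Summarised by sample as the arm's median shift from the ddH2O mean, the sterol arm stood at -0.33, -0.21 and -0.31 in the 3 VC samples and between -0.011 and 0.013 in the ddH2O samples.

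**Figure D1:**
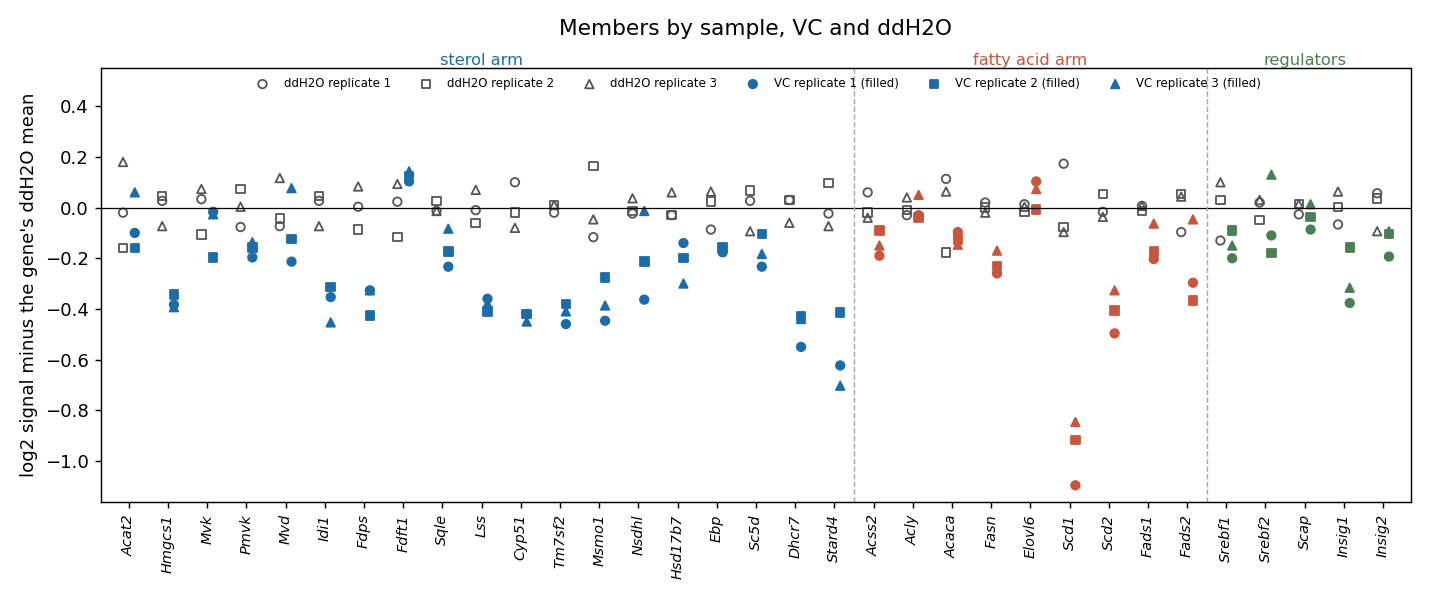
Log2 level of each of the 33 genes in each VC and ddH2O sample, minus the mean of that gene's 3 ddH2O samples. Open symbols are ddH2O samples, filled symbols VC samples, and symbol shape gives the replicate; Scd1, at a mean difference of -0.96, lies furthest below the line, and Fdft1 is the one sterol gene with its VC samples above it.

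Stard4, which encodes a soluble protein that carries cholesterol between membranes, showed the largest fall of the sterol arm. Its levels were 1.80, 1.92 and 1.75 in ddH2O and 1.20, 1.41 and 1.12 in VC. All VC samples were lower than all ddH2O samples, and the log2 difference was -0.58 (SE 0.092, n = 3 a group), a 1.49-fold fall with limma adjusted p = 0.0140.

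Dhcr7 encodes the reductase of the last step to cholesterol. It stood at 4.54, 4.54 and 4.45 in ddH2O and 3.96, 4.08 and 4.07 in VC, and the groups did not overlap. The log2 difference was -0.48 (SE 0.061), a 1.39-fold fall with limma adjusted p = 0.00893.

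Cyp51 and Tm7sf2 act next to each other on lanosterol, Cyp51 as the 14-alpha demethylase and Tm7sf2 as the sterol reductase that follows it. Cyp51 was at 0.81, 0.69 and 0.63 in ddH2O and at 0.29, 0.29 and 0.26 in VC, a log2 difference of -0.43 (SE 0.062, limma adjusted p = 0.0114). Tm7sf2 was at 2.91, 2.94 and 2.94 in ddH2O and at 2.47, 2.55 and 2.52 in VC, a log2 difference of -0.41 (SE 0.051, limma adjusted p = 0.00863). Both genes were lower in every VC sample than in any ddH2O sample, and all 3 Cyp51 probes on the array were called, with log2 differences from -0.48 to -0.37.

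Lss, the synthase that closes squalene epoxide into lanosterol, was at 1.02, 0.97 and 1.10 in ddH2O and at 0.67, 0.62 and 0.65 in VC, without overlap. Its log2 difference was -0.38 (SE 0.057, limma adjusted p = 0.0120). The other 4 sterol genes that fell differed by similar amounts. Hmgcs1, which commits acetyl-CoA to the mevalonate pathway, had a log2 difference of -0.37 (SE 0.056, limma adjusted p = 0.0123). Idi1, the isopentenyl diphosphate isomerase, had -0.38 (SE 0.065, limma adjusted p = 0.0174) and Fdps, which makes farnesyl diphosphate, had -0.36 (SE 0.065, limma adjusted p = 0.0188). Msmo1, the oxidase that removes methyl groups at carbon 4 of the sterol, had -0.37 (SE 0.091, limma adjusted p = 0.0395), a call that was lost when any 1 of the 6 samples was left out.

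The remaining 10 sterol genes were not called in VC. Fdft1, the squalene synthase, was the one gene of the arm with a difference above 0: its levels were 3.20, 3.06 and 3.27 in ddH2O and 3.28, 3.30 and 3.32 in VC, a log2 difference of 0.12 (limma adjusted p = 0.251) with the VC samples just above the ddH2O samples. Hsd17b7, a ketosteroid reductase of the same chain, came nearest to the threshold at -0.22 (limma adjusted p = 0.0624). The mevalonate kinase gene Mvk stood at -0.39, -0.53 and -0.35 in ddH2O and -0.44, -0.62 and -0.45 in VC, which overlap. Acat2, the thiolase that joins acetyl-CoA units, and Mvd, the mevalonate diphosphate decarboxylase, differed by -0.064 and -0.084. Pmvk, Sqle, Nsdhl, Ebp and Sc5d lay between -0.19 and -0.16.

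In the fatty acid arm the desaturases carried the largest differences. Scd1, a stearoyl-CoA desaturase that makes monounsaturated fatty acids, stood at 2.15, 1.90 and 1.88 in ddH2O and at 0.88, 1.06 and 1.13 in VC. The groups were far apart, and the log2 difference of -0.96 (SE 0.10, limma adjusted p = 0.00713) was a 1.94-fold fall, with only 0.4% of all genes tested at or below it. Its paralog Scd2 was at 5.70, 5.77 and 5.68 in ddH2O and 5.22, 5.31 and 5.39 in VC, a log2 difference of -0.41 (SE 0.065, limma adjusted p = 0.0135). Fasn, the fatty acid synthase, was at 6.13, 6.11 and 6.09 in ddH2O and 5.85, 5.88 and 5.94 in VC, again without overlap. Its log2 difference was -0.22 (SE 0.051, limma adjusted p = 0.0360), and it lost its call (adjusted p 0.05 or above) when any 1 of the 6 samples was left out.

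The other 6 fatty acid genes were not called in VC. Acaca, the acetyl-CoA carboxylase that precedes Fasn, was at -0.59, -0.88 and -0.64 in ddH2O and -0.80, -0.83 and -0.85 in VC, which overlap. Acly and Acss2, which supply acetyl-CoA from citrate and from acetate, differed by -0.0050 and -0.14. The elongase gene Elovl6 differed by 0.057, and the desaturase genes Fads1 and Fads2 of the polyunsaturated series by -0.15 and -0.24 (limma adjusted p = 0.121 and 0.144). Fads2 varied most of these, with 0.13 and 0.06 in VC samples 1 and 2 and 0.38 in VC sample 3, against 0.33 to 0.48 in ddH2O.

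Among the regulators in VC, Insig1 was the one gene called. It stood at 0.55, 0.62 and 0.68 in ddH2O and 0.24, 0.46 and 0.30 in VC, without overlap, and the log2 difference was -0.28 (SE 0.076, limma adjusted p = 0.0493). That call lay at the threshold and was lost on leaving out any 1 of the ddH2O samples, VC sample 1 or VC sample 3, with log2 differences from -0.32 to -0.24, and under each of the other 4 scalings. Insig2, its paralog, was at 1.80, 1.78 and 1.65 in ddH2O and 1.55, 1.64 and 1.65 in VC (difference -0.13, limma adjusted p = 0.203).

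The SREBP genes themselves were not called in VC. Srebf1, which encodes SREBP-1, was at 4.45, 4.61 and 4.68 in ddH2O and 4.38, 4.49 and 4.43 in VC, a log2 difference of -0.15 with a 95% interval from -0.33 to 0.031. Srebf2, which encodes SREBP-2, was at 0.70, 0.63 and 0.71 in ddH2O and 0.57, 0.50 and 0.81 in VC, a difference of -0.054 with an interval from -0.27 to 0.16. Scap was at 3.46, 3.50 and 3.50 in ddH2O and 3.40, 3.45 and 3.50 in VC, a difference of -0.036 with an interval from -0.16 to 0.092. For Srebf1, Srebf2 and Scap the groups overlapped, and a change smaller than these intervals could not be detected with 3 arrays a group.

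The VC and ddH2O arrays lay on 3 slides, and only slide 2 held both groups (ddH2O samples 2 and 3 with VC samples 1 and 2). Slide 1 held ddH2O sample 1 and slide 3 held VC sample 3. Within slide 2 the sterol median was -0.29 and the fatty acid median -0.19, and between the arrays on the other 2 slides they were -0.27 and -0.19. Of the 19 sterol genes 15 were below 0 in both, as were 6 of the 9 fatty acid genes, against 5289 of all 14531 genes. With slide as a block limma called 0 of all 14531 genes after adjustment, and Scd1 came to a log2 difference of -0.92 with adjusted p = 0.0560. Unadjusted p under 0.05 in the lower direction was then reached by 14 of 19 sterol genes (73.7%) and 5 of 9 fatty acid genes (55.6%), against 15.4% of all genes. The calls above therefore hold only without the slide as a term. With it the sterol median went from -0.22 to -0.29 and the fatty acid median from -0.15 to -0.19. Single genes moved both ways: Mvd went from -0.084 to -0.20 and Fads2 from -0.24 to -0.38, while Cyp51 went from -0.43 to -0.37.

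**Figure D2:**
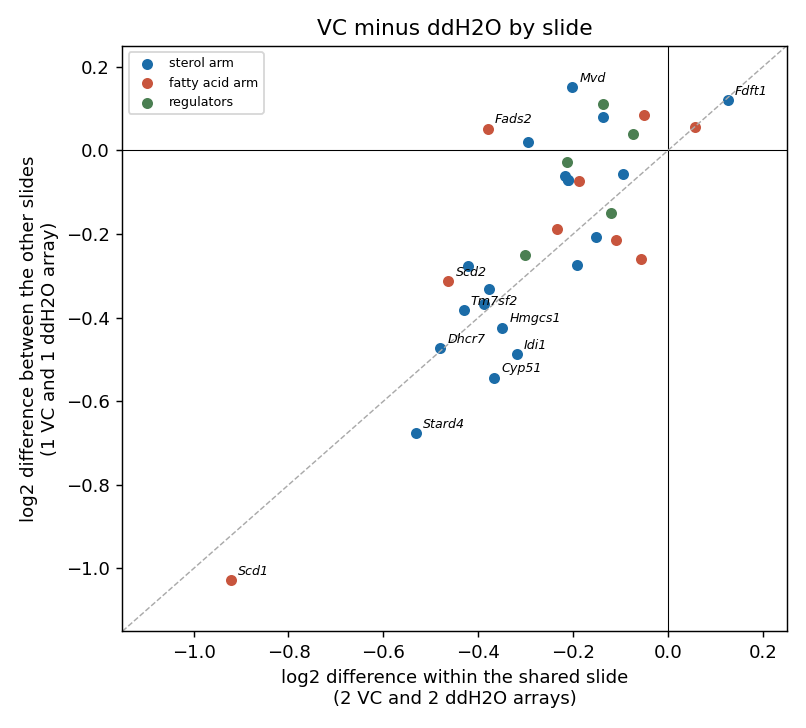
VC minus ddH2O log2 difference of each gene within slide 2 (horizontal, 2 arrays of each group) against the difference between the single arrays on the other slides (vertical). Points are coloured by arm and the dashed line marks equal differences; Scd1 lies near it at -0.92 and -1.03, and Stard4 at -0.53 and -0.68.

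The number of sterol genes called in VC also moved with single samples. It was 3 without ddH2O sample 2, 4 without VC sample 1, 6 without ddH2O sample 1 and 8 without any 1 of the other samples, in place of 9. The fatty acid count was 1 without ddH2O sample 2 or VC sample 1 and 2 without any 1 of the others, in place of 3. Scaling each array to its added control RNAs, which moved the median of all genes to 0.13, left 2 sterol genes and 1 fatty acid gene called lower, and 15 of 19 and 6 of 9 below 0. Over all genes, 61.5% of calls were lower under the percentile scaling, 43.3% under median scaling and 31.8% under the control RNA scaling.

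In RA most sterol genes fell, while fatty acid genes fell and rose in equal number under the percentile scaling. Of the 19 sterol genes 15 fell and 2 rose, where 42.1% of all 16015 genes tested fell and 35.9% rose: the RA arrays differed from the DMSO arrays at 78% of all genes, so a call alone says little. The 15 are 78.9% of the arm. In the fatty acid arm 3 of 9 fell and 3 rose, which became 7 and 0 under median scaling and 4 and 0 under scaling to the control RNAs. Of the 5 regulators 2 fell and 1 rose. The groups did not overlap, lower in RA, for 15 sterol and 5 fatty acid genes (44.4% of all genes) and, higher in RA, for 2 and 3 (37.4%), or 81.7% of all genes in either direction. Insig1 and Lss showed called falls of at least 2-fold, against 15% of all genes, and none of the 33 a rise of that size, against 17.4%. The median log2 difference was -0.56 over the sterol arm, -0.049 over the fatty acid arm and -0.075 over all genes. The lower and upper quartiles of all genes were -0.67 and 0.66, and the sterol median lay between them. No test of the difference between the arms was made.

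Slide and treatment cannot be told apart here, because each of the 2 slides carried a single group. The scaling also mattered here. The median of all genes was -0.075 with the percentile scaling and -0.037 with quantile normalization, but -0.42 with each array scaled to its median and -0.46 with scaling to the control RNAs. Of all calls 54% were lower with the percentile, and 68.9% and 71.1% with the last 2 scalings. Relative to the median of all genes the sterol arm stood at -0.49 under the percentile scaling (and by construction under median and control RNA scaling, which shift all genes of an array alike), at -0.31 under quantile normalization and at -0.31 in the authors' deposited values, while the fatty acid arm stood between 0.025 and 0.23. The sterol median by sample was -0.56, -0.67 and -0.61 in the RA samples and between -0.024 and 0.034 in the DMSO samples, and the fatty acid median lay between -0.052 and -0.045 in the RA samples.

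**Figure D3:**
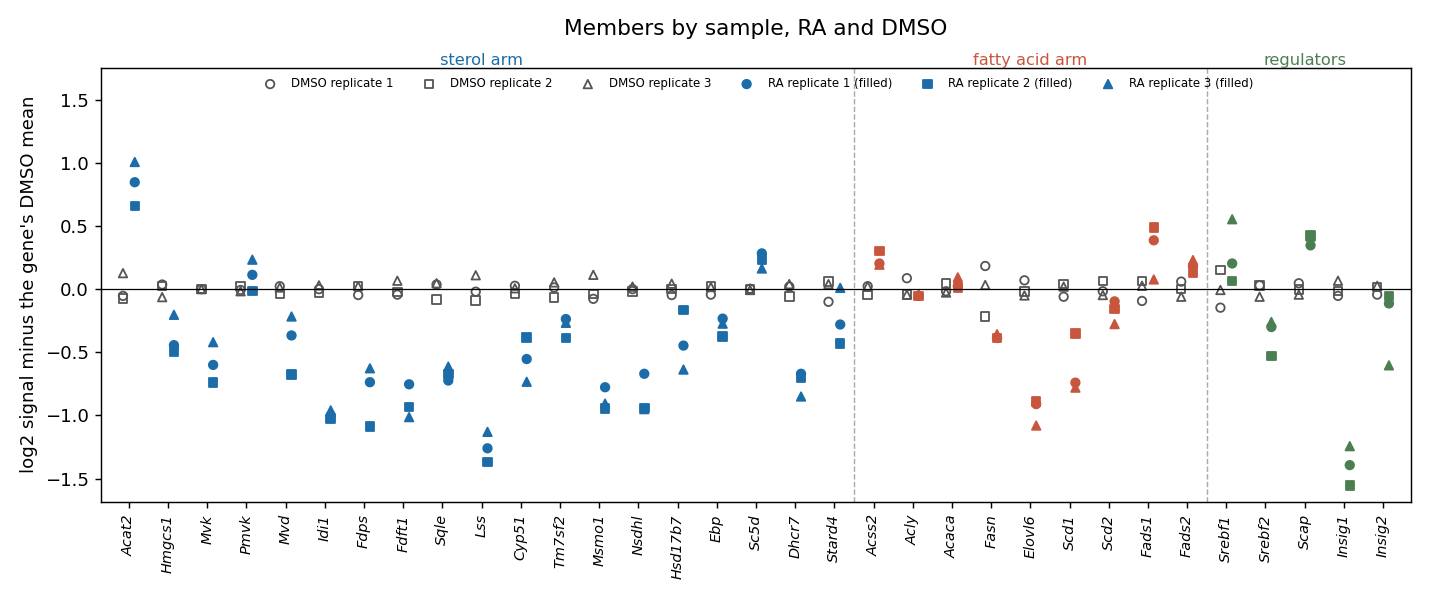
Log2 level of each of the 33 genes in each RA and DMSO sample, minus the mean of that gene's 3 DMSO samples. Open symbols are DMSO samples and filled symbols RA samples, with shape giving the replicate; Insig1 and Lss lie furthest below 0 and Acat2 furthest above it, at 0.84.

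In RA sterol genes fell in each stretch of the chain. Of the 7 genes up to farnesyl diphosphate 5 fell and 1 rose, all 3 genes that make and close squalene fell, and of the 8 genes from lanosterol to cholesterol 7 fell and 1 rose. Their medians were -0.42, -0.90 and -0.49. Lss showed the largest fall: its levels were 0.70, 0.63 and 0.83 in DMSO and -0.54, -0.65 and -0.41 in RA. The groups did not overlap, and the log2 difference was -1.25 (SE 0.090, limma adjusted p = 3.35e-05), a 2.39-fold fall.

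Idi1 stood at 4.09, 4.06 and 4.12 in DMSO and 3.09, 3.06 and 3.13 in RA, a log2 difference of -0.997 (SE 0.056, limma adjusted p = 1.18e-05). Fdft1 stood at 3.56, 3.58 and 3.67 in DMSO and 2.85, 2.67 and 2.59 in RA, a log2 difference of -0.90 (SE 0.085, limma adjusted p = 0.000114). Neither gene's groups overlapped, and Fdft1, which had not been called in VC, was 1.86-fold lower here. Different probes read Fdft1 in the 2 comparisons. A dim probe found on both designs gave -0.12 in VC and -0.20 in RA and was called in neither.

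Msmo1 was at 5.01, 5.05 and 5.20 in DMSO and 4.31, 4.14 and 4.18 in RA, a log2 difference of -0.88 (SE 0.080, limma adjusted p = 0.000101). Nsdhl, the dehydrogenase that works with Msmo1 in removing the carbon 4 methyl groups, was at 1.11, 1.09 and 1.13 in DMSO and 0.44, 0.17 and 0.16 in RA, a log2 difference of -0.85 (SE 0.089, limma adjusted p = 0.000179). Both were lower in all RA samples. The other sterol genes that fell were Fdps at -0.81, Dhcr7 at -0.74, the squalene epoxidase Sqle at -0.67, Mvk at -0.58, Cyp51 at -0.56, Mvd at -0.42, Hsd17b7 at -0.41, Hmgcs1 at -0.38, Tm7sf2 at -0.30 and Ebp, a sterol isomerase, at -0.29. The calls of Hmgcs1, Ebp, Tm7sf2 and Mvd were lost under quantile normalization, where they differed by -0.021, 0, -0.077 and -0.27. Those of Mvd and Hsd17b7 were also lost without single samples, Mvd without DMSO sample 1 or 3 and Hsd17b7 without DMSO sample 2, DMSO sample 3 or RA sample 1, at log2 differences from -0.41 to -0.39.

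Against the arm's direction, Acat2 and Sc5d rose in RA. Acat2 was at -0.71, -0.73 and -0.53 in DMSO and 0.19, 0.00 and 0.35 in RA, a log2 difference of 0.84 (SE 0.11, limma adjusted p = 0.000550) or 1.78-fold, and under the control RNA scaling it came to 0.46 and was not called. Sc5d, the sterol C5 desaturase, had a log2 difference of 0.23 (SE 0.058, limma adjusted p = 0.0114), which turned to -0.12 under median scaling and -0.16 under the control RNA scaling. Pmvk, the phosphomevalonate kinase, was not called, at 4.26, 4.29 and 4.25 in DMSO and 4.38, 4.25 and 4.50 in RA, which overlap. Stard4, which fell in VC, was at 1.08, 1.24 and 1.22 in DMSO and 0.90, 0.75 and 1.19 in RA, also overlapping (difference -0.24, limma adjusted p = 0.119). Without RA sample 3 its difference was -0.36 and was called.

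The fatty acid arm held both falls and rises in RA. Elovl6, which lengthens palmitate to stearate, was at 4.45, 4.36 and 4.33 in DMSO and 3.47, 3.49 and 3.30 in RA, a log2 difference of -0.96 (SE 0.077, limma adjusted p = 5.46e-05) or a 1.94-fold fall. Scd1 was at 1.25, 1.35 and 1.33 in DMSO and 0.57, 0.96 and 0.53 in RA, a log2 difference of -0.62 (SE 0.12, limma adjusted p = 0.00357). Both were lower in every RA sample. Fasn was at 0.11, -0.29 and -0.04 in DMSO and -0.46, -0.46 and -0.43 in RA, without overlap, a log2 difference of -0.38 (SE 0.11, limma adjusted p = 0.0176), and it lost its call without DMSO sample 3 (log2 difference -0.36).

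The rises in this arm were small and hung on the scaling. Fads1 was at 0.92, 1.08 and 1.04 in DMSO and 1.40, 1.5 and 1.09 in RA, with RA sample 3 just above the DMSO range, a log2 difference of 0.31 (SE 0.12, limma adjusted p = 0.0465). Acss2 had 0.23 (SE 0.062, limma adjusted p = 0.0128) and Fads2 0.18 (SE 0.063, limma adjusted p = 0.0366). Under median scaling the 3 genes came to -0.027, -0.11 and -0.16, and under the control RNA scaling to -0.066, -0.15 and -0.20. The count of genes that rose was 0 without DMSO sample 2, 1 without DMSO sample 1, DMSO sample 3 or RA sample 1, and 2 without RA sample 2 or 3. Scd2 (difference -0.18, limma adjusted p = 0.0625), Acly (-0.049) and Acaca were not called. Acaca was at 3.70, 3.76 and 3.69 in DMSO and 3.74, 3.73 and 3.81 in RA, which overlap.

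Of the regulators, Insig1 showed the largest difference of all 33 genes in RA. It was at 0.07, 0.11 and 0.19 in DMSO and -1.27, -1.43 and -1.12 in RA, far from overlap, a log2 difference of -1.40 (SE 0.094, limma adjusted p = 2.52e-05) or a 2.63-fold fall. Srebf2 was at 0.79, 0.79 and 0.70 in DMSO and 0.46, 0.23 and 0.50 in RA, a log2 difference of -0.37 (SE 0.087, limma adjusted p = 0.00812). Scap was at 3.74, 3.69 and 3.65 in DMSO and 4.04, 4.12 and 4.11 in RA, a log2 difference of 0.40 (SE 0.059, limma adjusted p = 0.000997). The rise of Scap shrank to 0.056 under median scaling and 0.017 under the control RNA scaling and was not called there. Srebf1 was at -2.55, -2.25 and -2.41 in DMSO and -2.20, -2.34 and -1.85 in RA, overlapping (difference 0.27, limma adjusted p = 0.128). Its probe here is not the one used for VC and was much dimmer, with a mean of -2.40 in DMSO against 4.58 in ddH2O. Insig2 was at 1.70, 1.76 and 1.77 in DMSO and 1.63, 1.69 and 1.14 in RA, where RA sample 3 lay apart from the other two (difference -0.26, limma adjusted p = 0.157).

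**Figure D4:**
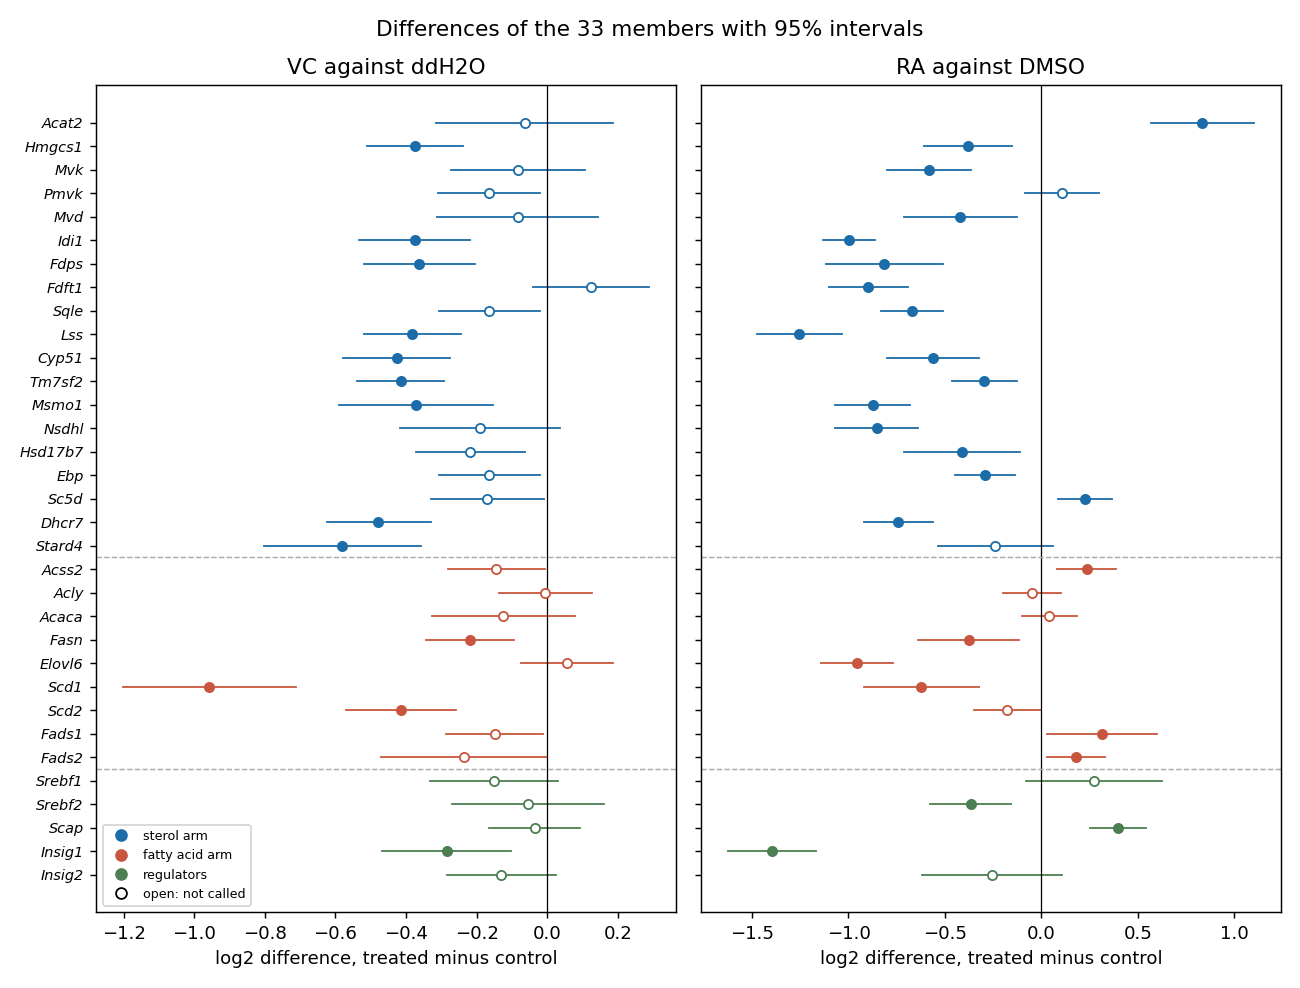
Log2 difference of each of the 33 genes, treated minus control, with its 95% interval from limma, for VC against ddH2O on the left and RA against DMSO on the right; the horizontal scales differ. Filled points were called and open points were not, and colour marks the arm: sterol points lie mostly left of 0 in both panels, while fatty acid points in RA lie on both sides.

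The RA cultures differed in cell state as well, in a comparison where 42.1% of all genes tested fell and 35.9% rose. All 6 embryonic stem cell markers fell, and their summed linear level, with the array's 75th percentile as 1, went from 506 to 523 in DMSO to 79.6 to 89.2 in RA. Pou5f1, the pluripotency factor Oct4, was 33-fold lower and still above background on all arrays. All 5 primitive endoderm markers rose (sum 11.1 to 12.2 in DMSO, 29.7 to 35.3 in RA), as did 3 of 4 neural markers (4.81 to 4.94 against 18.3 to 19.8) and 5 of 7 tested fibroblast markers (39.9 to 41.6 against 72.7 to 80.0). In those lists the neural marker Tubb3 fell 7.39-fold and the fibroblast marker Thy1 2.78-fold. Of the blood and endothelial markers 1 rose and 1 fell among 4 tested (9.56 to 10.4 against 9.80 to 15.4). Lum, Cdh5 and Hbb-bs were not above background on any RA or DMSO array. In the VC comparison 3 of 6 stem cell markers rose (sum 495 to 572 in ddH2O, 521 to 567 in VC), 3 of 7 tested fibroblast markers fell (26.4 to 27.9 against 24.5 to 25), 1 of 5 primitive endoderm markers fell (0.990 to 1.03 against 0.927 to 0.932), 1 of 3 tested neural markers fell (3.14 to 3.34 against 3.16 to 3.29), and neither of the 2 blood and endothelial markers tested was called (0.562 to 0.603 against 0.531 to 0.546, both with unadjusted p above 0.05). These VC calls moved with the scaling: 2 stem cell markers rose under quantile and control RNA scaling, 2 fibroblast markers fell under quantile and median scaling and 1 under control RNA scaling, and 0 primitive endoderm and 0 neural markers fell under median and control RNA scaling. Of all genes tested in the VC comparison 10.5% fell and 6.59% rose under the percentile scaling. Lum, Ptprc, Cdh5 and Irx3 were not above background on any VC or ddH2O array. The part of these markers in the results above was not tested.

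The comparisons share no samples, and 8 of the 9 sterol genes that fell in VC also fell in RA: Cyp51, Dhcr7, Fdps, Hmgcs1, Idi1, Lss, Msmo1 and Tm7sf2. They are 88.9% of the arm's falls in VC and 53.3% of its falls in RA. Of the whole sterol arm 78.9% fell in RA, and the 88.9% lies near that share. Among all 13728 genes tested in both comparisons, 437 fell in both, which is 30% of the falls in VC and 6.99% of those in RA, and 780 fell in VC and rose in RA. None of the 13 listed genes that fell in VC rose in RA. In the fatty acid arm Scd1 and Fasn fell in both, and among the regulators Insig1 did. Of the 33 genes 16 were read by the same probe on both designs. Scd1 is one of these, with -0.96 in VC and -0.62 in RA. Lss is another, with -0.38 in VC and -1.25 in RA. Fasn was not: the probe used for RA gave -0.10 and was not called in VC (limma adjusted p over all probes 0.518).

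For 26 of the 33 genes the RefSeq promoter table of build GRCm38.p6 held 34 windows, each from 250 bases before to 50 bases after a transcription start. The CCAAT letters bound by NF-Y, a factor that is known to act beside SREBPs, were found on one strand or the other in 14 of 18 sterol windows (77.8%), 3 of 6 fatty acid windows (50.0%) and 12289 of all 32851 windows (37.4%). The letters GGGCGG, known from Sp1 sites, were in 83.3% of sterol windows, 50.0% of fatty acid windows and 35.7% of all. The core of the classic sterol regulatory element, CACCCCAC, was in the Hmgcs1 and Acat2 windows and in 2.87% of all windows, and a longer form of it, with AT before the C, was in no listed gene's window and in 0.0913% of all. The palindrome CACGTG was in 17.6% of the listed genes' windows and 7.15% of all. These are matches of letters only.

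The 150 bases before the start are shown for the 9 genes that fell in both comparisons and have a window. The CCAAT letters were not particular to these genes. Of the 15 sterol genes with a window, 14 held them on one strand or the other. Sc5d and Acss2, which rose in RA, and Pmvk, called in neither comparison, hold them within the same 150 bases. Capitals mark CCAAT, its reverse ATTGG and CACCCCAC, and all are written on the gene's own strand. Insig1 has no capitals here because its CCAAT match lies at -216 to -212 from the start, outside the stretch shown, and Dhcr7 has 3 annotated starts, of which the one with matches is shown.
Hmgcs1, chr13:119690201-119690350, plus strand: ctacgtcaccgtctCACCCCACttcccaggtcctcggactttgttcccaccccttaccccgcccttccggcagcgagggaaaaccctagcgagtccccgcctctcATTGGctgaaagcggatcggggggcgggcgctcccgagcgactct
Idi1, chr13:8885456-8885605, plus strand: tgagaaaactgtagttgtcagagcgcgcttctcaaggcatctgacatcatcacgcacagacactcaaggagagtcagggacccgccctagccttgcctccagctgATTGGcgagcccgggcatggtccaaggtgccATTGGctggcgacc
Lss, chr10:76531455-76531604, plus strand: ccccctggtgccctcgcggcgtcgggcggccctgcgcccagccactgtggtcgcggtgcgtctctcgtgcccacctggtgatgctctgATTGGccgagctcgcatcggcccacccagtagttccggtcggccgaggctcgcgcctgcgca
Cyp51, chr5:4104698-4104847, minus strand: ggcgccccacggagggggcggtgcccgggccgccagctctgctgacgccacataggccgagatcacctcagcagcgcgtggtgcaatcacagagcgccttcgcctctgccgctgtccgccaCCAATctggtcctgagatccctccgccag
Tm7sf2, chr19:6067851-6068000, minus strand: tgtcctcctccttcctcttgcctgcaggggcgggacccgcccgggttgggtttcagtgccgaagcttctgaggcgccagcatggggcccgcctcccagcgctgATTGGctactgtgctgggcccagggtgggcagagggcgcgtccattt
Msmo1, chr8:64733579-64733728, minus strand: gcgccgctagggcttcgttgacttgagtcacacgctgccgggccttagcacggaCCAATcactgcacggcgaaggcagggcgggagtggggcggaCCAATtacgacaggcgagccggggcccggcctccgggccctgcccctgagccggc
Dhcr7, chr7:143830064-143830213, plus strand: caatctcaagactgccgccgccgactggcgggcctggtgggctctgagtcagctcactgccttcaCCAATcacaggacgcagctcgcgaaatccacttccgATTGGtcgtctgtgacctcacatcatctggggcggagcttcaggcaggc
Fasn, chr11:120824548-120824697, minus strand: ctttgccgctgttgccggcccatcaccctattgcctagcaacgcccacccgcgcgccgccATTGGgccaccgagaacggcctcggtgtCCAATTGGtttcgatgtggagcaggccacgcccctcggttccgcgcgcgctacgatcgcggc
Insig1, chr5:28071262-28071411, plus strand: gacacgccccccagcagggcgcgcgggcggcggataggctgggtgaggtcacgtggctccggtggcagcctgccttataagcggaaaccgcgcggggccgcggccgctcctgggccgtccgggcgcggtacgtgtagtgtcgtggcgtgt

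On the VC design 50 of the 55 probes lay below 0, and on the RA design 35 of 46. Counted by gene, 50.1% of all genes tested lay below 0 in VC and 52.7% in RA. On the VC design 17 genes had more than 1 probe, and 14 of 55 probes (25.5%) were called, all lower, against 8.28% of all 28160 probes. The brightest probes of Msmo1, Fasn and Insig1, which were called over all genes, were not called over all probes. Their limma adjusted p over all probes was 0.0627, 0.0642 and 0.0767. Dimmer probes of Dhcr7, Hmgcs1, Idi1, Lss and Stard4 lay below 0 but were not called, unlike the brightest probe of each gene. The Dhcr7 probe gave -0.25, Hmgcs1 -0.10, Idi1 -0.064 and Lss -0.25. Those of Stard4 gave -0.20 and -0.34. For these dimmer probes limma adjusted p over all probes ran from 0.0936 to 0.625. For Nsdhl the probes also differed in their call. Its brightest probe gave -0.19 and was not called, while its other 2 probes gave -0.41 and -0.50 (limma adjusted p over all probes 0.0208 and 0.0219). Probes of opposite sign were found for Mvk (-0.082 and 0.034), Fdft1 (0.12 and -0.12, the dim probe above background on 4 of 6 arrays) and Acaca (from -0.28 to 0.16), and none of those was called. The count of 14 was 0 without any 1 of ddH2O samples 1 and 2 and VC sample 1, 1 without ddH2O sample 3 and 5 without VC sample 2 or 3.

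On the RA design 12 genes had more than 1 probe, and 25 of 46 probes were called lower and 4 higher (63.0% in all), against 71.6% of all 37050 probes. Fads1 and Fads2, called over all genes, were not called over all probes (limma adjusted p 0.0602 and 0.0616). Both probes fell for Srebf2 (-0.37 and -0.71), Mvk (-0.58 and -0.60) and Tm7sf2 (-0.30 and -0.40). Dimmer probes of Nsdhl, Hsd17b7 and Fdft1 lay below 0 but were not called, unlike the brightest probe of each gene. They gave -0.29, -0.13 and -0.20 (limma adjusted p over all probes 0.0787, 0.158 and 0.491). The dimmer Acss2 probe gave 0.16 and was not called. For Stard4 the brightest probe was not called, at -0.24, and a dimmer one gave -0.83 (limma adjusted p over all probes 0.00860). Acaca had one probe that fell by 0.63 on the log2 scale and others at 0.041 and 0.14, and Pmvk had 0.11 and -0.046.

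Genes around the pathway were read from 4 further lists. In VC 10.5% of all genes tested fell and 6.59% rose. Unadjusted limma p under 0.05 was reached by 18.7% in the lower and 15.9% in the higher direction. In VC 3 of 12 genes for liver X receptors and for sterol export, storage and transport fell and 0 rose (3 and 1 with unadjusted p under 0.05). The largest fall was that of Vldlr, a receptor that takes up lipoproteins, at -0.84 (SE 0.16, limma adjusted p = 0.0200). Of 10 partners in SREBP processing and degradation 0 were called (1 with unadjusted p under 0.05, in the lower direction). Of 16 other lipid synthesis genes 3 fell and 1 rose, led by Fads3, a desaturase-like gene, at -0.62 (limma adjusted p = 0.0259) and by Gpam, which starts glycerolipid synthesis, at 0.30 (limma adjusted p = 0.0471). Of 12 fatty acid oxidation genes 0 fell and 1 rose (1 and 1 with unadjusted p under 0.05), and the one that rose was Cpt1a, which admits fatty acids to mitochondria, at 0.35 (SE 0.052, limma adjusted p = 0.0125). Under the control RNA scaling Vldlr, Gpam and Cpt1a kept their calls, while the falls among the other lipid synthesis genes went from 3 to 0 (Fads3 at adjusted p = 0.0586) and those of the first list from 3 to 2.

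In RA 8 of 12 liver X receptor and transport genes fell and 3 rose, with Vldlr at -1.38 and the receptor gene Nr1h3 at 1.07, where 42.1% of all genes fell and 35.9% rose. Under quantile normalization 5 fell and 2 rose. Of the processing partners 2 fell and 2 rose, with Mbtps2, the site-2 protease that frees SREBP from the membrane, at -0.72. That split was 2 to 6 under quantile normalization and 6 to 1 under median scaling. Of the 16 other synthesis genes 8 fell and 6 rose, with Mid1ip1, which aids acetyl-CoA carboxylase, at -1.79 and Fads3 at 3.88, a 14.7-fold rise. These shares lie near those of all genes, and the split was 10 to 3 under median scaling and 8 to 2 under control RNA scaling. Of the 12 oxidation genes 6 fell and 3 rose, and Cpt1a fell 21.3-fold (log2 difference -4.41, SE 0.10, limma adjusted p = 3.32e-07) while Ppara, which encodes a receptor that senses fatty acids, rose to a log2 difference of 1.18. That split was 9 to 2 under median scaling and 8 to 1 under control RNA scaling. In these 4 lists Cpt1a, Gpam, Fads3 and Me1 were called in opposite directions in the 2 comparisons, which lie on separate array designs. Gpam was at -1.27 in RA. Me1, an enzyme that supplies NADPH for synthesis, was at -0.30 in VC and 0.40 in RA, and its RA call was lost under median and control RNA scaling. Gpam in RA and Me1 were named after their values were seen.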

How the data were processed

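RNA of 12 samples was hybridised to one-colour Agilent arrays and scanned; the file headers name version 10.7.3.1 of the Feature Extraction software. The deposited scanner files hold processed signal intensity, background-subtracted and detrended by the scanner software per the file headers. The authors' series table holds log2 values, which matched quantile-normalized log2 processed signal and served as an alternative. Probes were named through their transcript identifiers with RefSeq GRCm38.p6 names: 27479 of 41174 probes matched on the VC design and 27235 of 55681 on the RA design.

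Log2 processed signal minus each array's 75th percentile was used. Outlier spots were left out, spots of a probe averaged, and the brightest probe kept for each gene. Genes well above background on at least 3 of 6 arrays were fitted with limma 3.58.1 in R 4.3.3 (lmFit, eBayes, Benjamini-Hochberg over all genes). Tested on simulated data, 68.7% of 1.5-fold and 85.1% of 2-fold changes were recovered in the VC design over 14531 genes, and 49.3% and 86.6% in the RA design over 16015 genes. Of 4-fold changes 100% and 86.4% were recovered, and 6.63% and 6.33% of the calls were false. Each simulated comparison held only 67, 67 and 66 changed genes at 1.5-fold, 2-fold and 4-fold. In the data 17.1% of all genes were called in VC and 78% in RA, so these rates may not carry over. The number of arrays, 3 a group, limits the precision.

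Values in every sample are given for the regulators, for the 5 largest called changes of the sterol arm and the 4 largest of the fatty acid arm, and for genes whose probes differ in sign; of each further list the largest called rise and fall are named, except 1 that is not reported here. Pou5f1, Tubb3, Thy1 and the values of Acat2, Sc5d, Stard4 and single probes of Nsdhl and other genes were singled out after they were seen. The genes and lists were chosen with earlier results of these data known. Alternatives were other scalings, background corrections, filters, probe rules, tests, blocks and left-out samples. Same-numbered samples were not paired, since their deviations correlated between -0.12 and 0.060.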

Additional observations from a re-analysis of the deposited data

How the results depend on the processing

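With 3 arrays a group, small changes are below what these data resolve, and the slide is not separable from RA. Of 33 genes under 16 VC alternatives other than left-out samples, 462 of 528 outcomes kept their side of the threshold and the direction of any call, 62 lost a call and 4 gained one. In RA 393 of 462 did, 31 lost a call, 24 gained one and 14 turned with a call on at least one side. Among the 462 and the 393, differences called on neither side changed sign 16 times in VC (8 under spike-in scaling, 5 with the first normexp correction, 2 under median scaling and 1 with the second normexp correction) and 7 times in RA. Leaving out 1 sample changed the sign of 5 such VC differences. Dhcr7 and Scd1 kept their VC call in 20 of 22 alternatives and Insig1 in 5. In RA 14 genes kept theirs in 20 of 20: Cyp51, Dhcr7, Elovl6, Fdft1, Fdps, Idi1, Insig1, Lss, Msmo1, Mvk, Nsdhl, Scd1, Sqle and Srebf2. The causes below were not tested unless stated.

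For VC, sterol genes called lower numbered 2 with the control RNA (spike-in) scaling, 2 at adjusted p under 0.01, and 0 with the normexp background correction or the fixed slide block, in place of 9. The fatty acid count was 1, 1, 0 and 0, in place of 3. The single regulator call became 0 under quantile normalization, median scaling, spike-in scaling, the authors' values, both normexp corrections, no filter, the mean of probes, no eBayes moderation, adjusted p under 0.01, the replicate block and the slide block. Member probes called were 1 with spike-in scaling, 9 with no eBayes moderation, 9 with the second normexp correction, and 0 with the first normexp correction, no filter, adjusted p under 0.01, the replicate block and the slide block, in place of 14. The sterol and fatty acid medians were -0.17 and -0.099 under median scaling, -0.086 and -0.017 under spike-in scaling, -0.48 and -0.30 with normexp, and -0.29 and -0.19 with the slide block. Normexp could not be fitted well on 3 arrays, where its background mean was -303.1, -379.5 and -857.4, against -6.26 to -3.49 on the others. The second normexp correction, chosen after seeing the data, left out 5 to 13 spots of local background over 10 times the array median on those arrays.

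For RA, the sterol and fatty acid medians were -0.34 and 0.19 with quantile normalization, -0.35 and 0.20 in the authors' values, -0.90 and -0.39 under median scaling, and -0.94 and -0.43 under the spike-in scaling. The fatty acid median was -0.22 with either normexp correction and -0.18 with the mean of probes. Sterol genes called higher numbered 1 with median scaling, either normexp correction or adjusted p under 0.01, and 0 with spike-in scaling. Fatty acid genes called higher numbered 0 with median scaling, spike-in scaling, adjusted p under 0.01 or the replicate block, and 1 with no filter. Fatty acid genes called lower numbered 7 with median scaling and 5 with either normexp correction. Regulators called higher numbered 0 with median or spike-in scaling and 2 with either normexp correction.

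The RA differences that turned and were called on at least one side were Acly at 0.31 and Fads2 at -0.071 with quantile normalization, and Acly at 0.31 and Fads2 at -0.073 in the authors' values. With median scaling Acaca turned to -0.30, Acss2 to -0.11, Fads1 to -0.027, Fads2 to -0.16, Pmvk to -0.23 and Sc5d to -0.12. With spike-in scaling Acss2 turned to -0.15, Fads1 to -0.066, Fads2 to -0.20 and Sc5d to -0.16. The 7 turns called on neither side were Scd2 at 0.19 with quantile normalization and 0.20 in the authors' values, Srebf1 at -0.068 under median and -0.11 under spike-in scaling, Acaca at -0.34 and Pmvk at -0.27 with spike-in scaling, and Acaca at -0.15 with the mean of probes.

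Leaving out 1 sample in turn, the VC counts of lower calls ranged from 3 to 8 for sterol, 1 to 2 for fatty acid and 0 to 1 for regulator genes, and member probes called from 0 to 5. The VC medians ranged from -0.28 to -0.22 and from -0.21 to -0.14. In RA, lower calls ranged from 13 to 16 for sterol and 2 to 3 for fatty acid genes and stayed at 2 for regulators. Higher calls stayed at 2 for sterol genes, ranged from 0 to 2 for fatty acid genes and stayed at 1 for regulators. Member probes called ranged from 22 to 32, and the medians from -0.58 to -0.52 and from -0.071 to -0.0060. The replicate block changed no other count by more than 1.5 times. A slide block was not run for RA, since each slide held 1 group.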
